A study of Homo sapiens with 45 samples.

Results

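The regions listed for CTCF and for MBD2 in DMSO-treated cells were compared with each other, 17440 CTCF regions and 15991 MBD2 regions, together 33431 of the 53743 regions in the 12 lists of the series. They were taken from the CTCF list and the MBD2 list of the DMSO treatment, and each distinct combination of chromosome, start and end counted as 1 region. The series measured where proteins sit on chromatin by ChIP-seq in HEK293T cells, a transformed line from human embryonic kidney. The groups used in the main comparison are HEK293T cells given the solvent DMSO for 72 h and immunoprecipitated for CTCF (3 libraries) or for MBD2 (3 libraries), with 3 DMSO input libraries named in the labels. The other treatments, BPK25 at 30 µM and IAA at 0.5 mM, also lasted 72 h. They enter only where stated, and so do the DMSO lists of MBD3 and TET1. The culture protocol mentions edited lines made from HEK293T, but no label says whether any library came from one, and none names a protein that IAA acts on. Whether replicates were separate cultures is also not stated. The authors called 1 list on replicates 1 to 3 together, so no value below has a replicate error and no difference between antibodies was tested. Intervals are 95% intervals that cover counting over regions only, and the sequencing depth of single libraries is unknown from these lists.

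CTCF is a zinc finger protein that binds a long DNA motif and is best known for insulators and for the anchors of chromatin loops, where it stops the cohesin ring. MBD2 has a methyl-CpG binding domain and is a subunit of NuRD, a complex that joins a nucleosome remodelling ATPase to histone deacetylases. MBD3 takes the place of MBD2 in other forms of NuRD. The title of the series puts NuRD at CTCF sites, and the comparison asks how closely the regions of the 2 proteins coincide. The regions are given by position alone (hg19), since no gene annotation or sequence of that build was used here.

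Of the CTCF regions, 11747 (67.4%) overlapped an MBD2 region by 1 bp or more, and of the MBD2 regions, 11750 (73.5%) overlapped a CTCF region. These are called shared here, and the other 5693 CTCF regions and 4241 MBD2 regions are called unshared. The match was close to 1 region for 1 region. Only 21 CTCF regions met 2 or more MBD2 regions and 18 MBD2 regions met 2 or more CTCF regions, among 11768 overlapping pairs. For the measures on pairs, each shared CTCF region was paired with the overlapping MBD2 region of nearest summit. The overlap had a median length of 230 bp (quartiles 207 and 263 bp), which was 99.3% of the shorter region. In 5555 pairs (47.3%) the shorter region lay wholly inside the longer one, and in 45 pairs (0.383%) less than 50% of the shorter region was covered. In total the CTCF regions covered 4.81 Mb and the MBD2 regions 4.44 Mb, and 2.91 Mb belonged to both, which is 60.5% of the CTCF length and 65.6% of the MBD2 length.

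The summits, the single bases of highest enrichment, nearly coincided. The median distance between the CTCF and the MBD2 summit was 11 bp (interval 11 to 12), with quartiles of 5 and 21 bp. In 90% of pairs it was 37 bp or less, against a median region width of 261 bp for shared CTCF regions. Summits lay 50 bp or less apart in 11051 pairs (94.1%, 93.6 to 94.5), and at the same base in 296 pairs (2.52%). The MBD2 summit had the higher coordinate in 5785 pairs and the lower one in 5666, and the median signed distance was 0 bp. Neither side of the CTCF summit was thus favoured on the reference strand, but the orientation of the CTCF motif was not available here. Any bias that follows the motif would be hidden in that count.

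**Figure D1:**
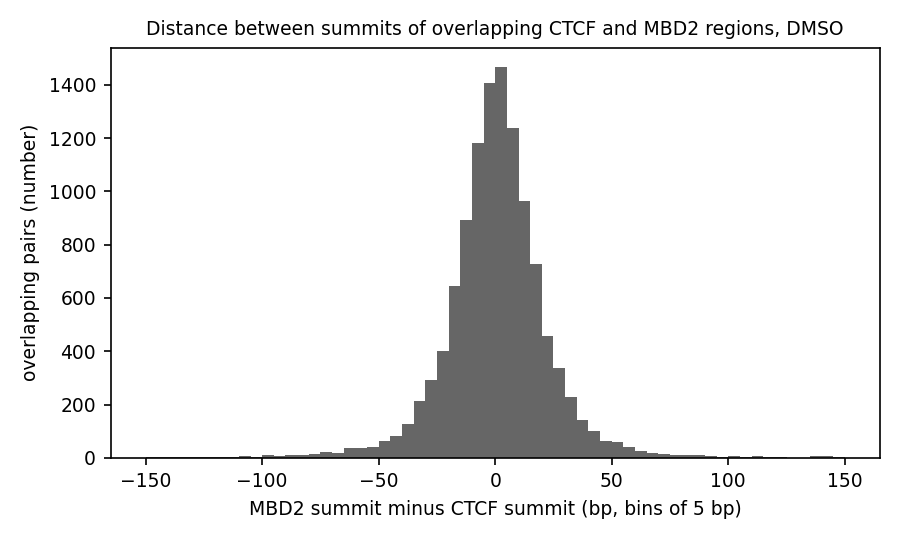
Number of overlapping pairs by the position of the MBD2 summit relative to the CTCF summit, in bins of 5 bp from -150 to 150 bp. The distribution has 1 peak at 0 and falls away alike on both sides, and 94.1% of all pairs have summits 50 bp or less apart.

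Stronger regions had closer summits. In the lowest quartile of CTCF fold enrichment among pairs the median distance was 17 bp and 84.3% of pairs lay within 50 bp, and in the highest quartile it was 9 bp and 98.7%. By quartile of MBD2 fold the medians were 17, 12, 10 and 9 bp. A summit placed from few fragments is less precise, so these values include the precision of each summit. The authors' fold enrichment is the ratio of the fragments stacked at the summit to the local background, and it describes ranks within a list.

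A small set of pairs had distant summits. In 224 pairs (1.91%) the summits were over 150 bp apart, up to 1503 bp. Of these, 137 (61.2%) included a region with 2 or more listed summits, against 323 (2.80%) of the other pairs. Their median widths were 418.5 bp for CTCF and 459 bp for MBD2, against 260 and 261 bp in the other pairs. Where both regions had 1 summit, 87 of 11287 pairs (0.771%) were over 150 bp apart and the largest distance was 480 bp. Distant summits were thus mostly found in wide regions in which several summits were listed. From such a region only the summit of largest −log10 p was used. Whether a summit left out lay nearer to that of the other protein was not tested.

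The same closeness was found for other pairs of proteins in DMSO. The median summit distance was 11 bp from CTCF to MBD3 (8099 pairs), 14 bp from CTCF to TET1 (5910 pairs), 11 bp from MBD2 to MBD3 (7673 pairs) and 13 bp from MBD2 to TET1 (5719 pairs). TET1 oxidises methylated cytosine. The share within 50 bp was 93.5%, 89.97%, 93.8% and 90.7% in that order. The distance of 11 bp is thus not particular to CTCF and MBD2.

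Unshared regions did not lie beside the regions of the other protein. The nearest MBD2 region was a median of 44.5 kb (42.4 to 46.3) away from an unshared CTCF region, with quartiles of 14.2 and 107 kb. From an unshared MBD2 region, the nearest CTCF region was a median of 42.3 kb (39.6 to 44.7) away, with quartiles of 12.96 and 102 kb. Gaps of 1 kb or less were found for 162 CTCF regions (2.85%, 2.45 to 3.31) and 125 MBD2 regions (2.95%, 2.48 to 3.501). Gaps of 100 bp or less numbered 3 and 5, and gaps over 100 kb were found for 26.8% and 25.2%. No MBD2 region shared the contig of 6 of the unshared CTCF regions. Near misses, in which the 2 proteins were listed side by side without an overlap, were thus rare.

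**Figure D2:**
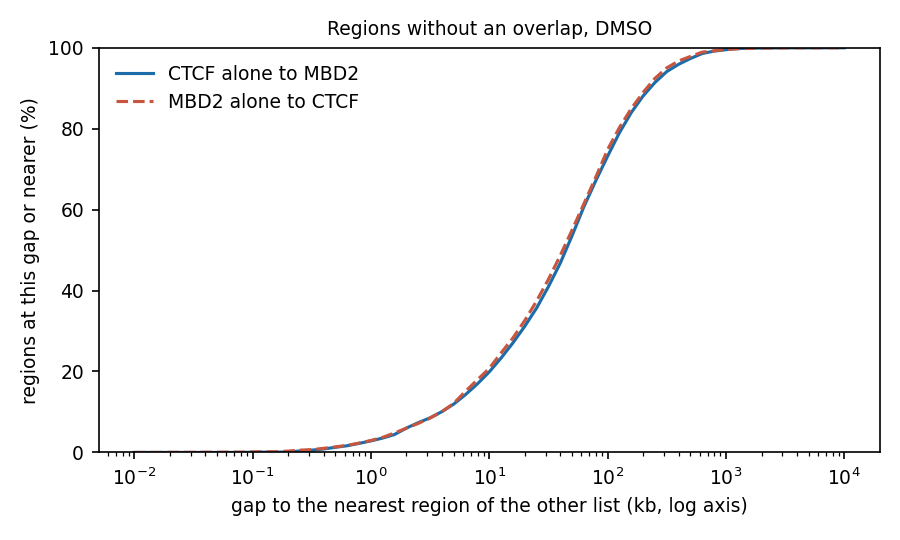
Share of unshared regions whose nearest region of the other list lies at a given gap or nearer, in kb on a log axis, for CTCF (solid, “CTCF alone” in the legend) and MBD2 (dashed, “MBD2 alone”). The 2 curves run together, with 2.85% and 2.95% of regions at 1 kb or less and medians of 44.5 and 42.3 kb.

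These gaps were of the size found between neighbours of 1 list. An unshared CTCF region had its next CTCF region at a median of 39.6 kb, and a shared one at 32.0 kb (31.1 to 33.4). For MBD2 the medians were 45.8 kb (43.1 to 48.6) for unshared and 35.3 kb (34.2 to 36.5) for shared regions. Shared regions thus stood in somewhat denser surroundings than unshared ones in both lists. From an unshared CTCF region the nearest unshared MBD2 region was a median of 192 kb away, and in the reverse direction the median was 142 kb. These gaps are to shorter lists, and no gap expected at their density was computed.

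Regions were narrow in both lists, and shared regions were the wider ones. Shared CTCF regions had a median width of 261 bp (259 to 262), and unshared ones 234 bp (233 to 235). For MBD2 the medians were 262 bp (260 to 263) and 232 bp (231 to 234). The narrowest region was 195 bp for CTCF and 198 bp for MBD2, so the median region is little wider than the least width in either list. The widest shared regions reached 2367 bp for CTCF and 2504 bp for MBD2, and the widest unshared ones 1053 and 972 bp. Widths were also compared within quartiles of fold, because width varied with fold. By decile of fold, the median CTCF width was 251 bp in the lowest, 234 bp in the third and 298 bp in the highest, and the MBD2 width was 247, 235 and 298 bp. In the lowest quartile of CTCF fold, shared and unshared CTCF regions had median widths of 248 and 235 bp, and in the highest quartile 284 and 246.5 bp. For MBD2 the values were 248 and 230 bp in the lowest quartile and 283 and 245.5 bp in the highest. The excess in width was thus present in the lowest and in the highest quartile of both lists.

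Unshared regions were weaker in both lists. The median CTCF fold was 4.63 (4.60 to 4.66) for shared and 3.74 (3.72 to 3.79) for unshared regions, and the median MBD2 fold was 4.80 (4.78 to 4.83) and 3.89 (3.85 to 3.95). The ranges overlapped widely, with shared CTCF folds from 1.16 to 24.96 and unshared ones from 1.13 to 8.98. A −log10 q of 5 or more, the authors' adjusted significance, was reached by 10939 of 11747 shared and 3985 of 5693 unshared CTCF regions. For MBD2 it was reached by 10868 of 11750 shared and 2897 of 4241 unshared regions. Most unshared regions were therefore not at the threshold of their own list. Regions with 2 or more summits made up 2.66% of shared and 1.55% of unshared CTCF regions, and 2.502% and 1.06% for MBD2.

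Read from the MBD2 list, the overlap rose along the whole range of fold. In the lowest decile of MBD2 fold, 46.9% of regions (44.4 to 49.3) overlapped a CTCF region, and in the highest decile 95.7% (94.6 to 96.6) did. From the CTCF list the deciles ran from 37.5% (35.3 to 39.8) to 92.5% (91.2 to 93.6). Each decile of either list stood above the one before it. In the highest decile, 69 MBD2 regions had no CTCF region and 131 CTCF regions had no MBD2 region. These shares include the detection limits of both lists.

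**Figure D3:**
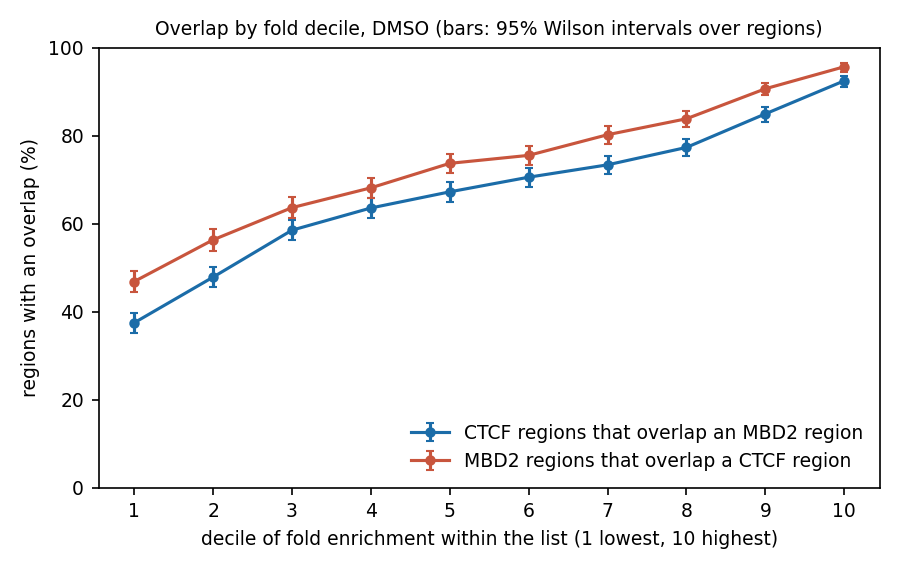
Share of regions that overlap a region of the other list, by decile of fold enrichment within the list, for CTCF (blue) and MBD2 (red); bars are 95% Wilson intervals over regions. Both shares climb at each step, from 37.5% to 92.5% for CTCF and from 46.9% to 95.7% for MBD2.

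At shared regions, a high fold for 1 protein went with a high fold for the other. Spearman's rho of the fold was 0.71 over 11747 pairs, as a description across regions that share their libraries. Local background enters both folds, and whether it came from the same control libraries was not tested. Of the 2939 pairs in the top quartile of CTCF fold, 1872 (63.7%, 61.9 to 65.4) were also in the top quartile of MBD2 fold. Opposite ranks were rare. In 62 pairs (2.11% of the top CTCF quartile) the MBD2 fold was in the bottom quartile, and in 49 pairs the order was the reverse. Over the quartiles of CTCF fold in ascending order, the median MBD2 fold was 3.72, 4.49, 5.10 and 6.28.

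**Figure D4:**
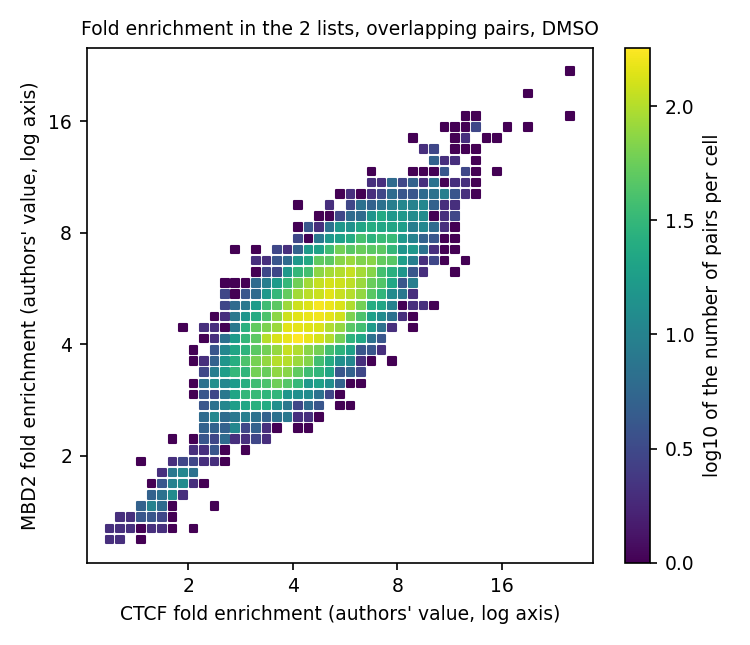
The authors' fold enrichment of overlapping pairs, CTCF on the horizontal and MBD2 on the vertical axis, both log axes; colour gives the log10 of the number of pairs in a cell. The cloud is elongated along the diagonal (rho 0.71), and few pairs lie toward the corners of high CTCF with low MBD2 fold or the reverse.

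Within the quartiles of CTCF fold, rho was 0.44, 0.19, 0.19 and 0.50 in ascending order. The middle quartiles lie between CTCF folds of 3.82 and 5.61, in a whole range of 1.16 to 24.96. A narrow range lowers rho by construction, so no difference in order between the quartiles is read from these values. Widths of paired regions were less alike than folds, with a rho of 0.41. For other pairs of DMSO lists rho of the fold was 0.72 (CTCF and MBD3), 0.70 (CTCF and TET1), 0.71 (MBD2 and MBD3) and 0.69 (MBD2 and TET1).

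The number of fragments stacked at a summit, the pileup, and the local background were recovered from the authors' fold and −log10 p. A whole pileup was found for all 17406 CTCF and all 15975 MBD2 regions with a −log10 p of 150 or less, and 34 and 16 regions above that limit were left out. The median pileup was 43 fragments in shared and 30 in unshared CTCF regions, and 39 and 28 for MBD2. The lowest local background found in each list is called its floor, and it was 4.35 fragments for CTCF and 3.77 for MBD2, a ratio of MBD2 to CTCF of 0.867. At pairs, the ratio of the 2 local backgrounds had a median of 0.870 (quartiles 0.855 and 0.896), and the backgrounds had a rho of 0.98. The ratio was within 1% of that of the floors in 16.97% of pairs and within 5% in 67.9%. The labels name 1 set of DMSO inputs.

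At shared regions, the pileups of the 2 proteins were set against each other. Over the 10206 pairs whose background was no more than 3 times the floor in both lists, the MBD2 pileup was a median of 0.917 of the CTCF pileup (quartiles 0.794 and 1.06). The ratio was 2 or more in 8 pairs (0.0784%) and 0.5 or less in 38 pairs (0.372%). The mean squared deviation from 1 constant ratio was 0.878 times that of counting noise. Over all 11717 pairs with both pileups it was 1.016 times. Only pairs that passed both lists enter, which narrows the scatter, so nothing is read from a value below 1. Spearman's rank correlation of the pileup was 0.77 over these pairs, and 0.82 over the 11717 pairs with both pileups. The same deviation was 0.905 for CTCF and MBD3 (6860 pairs) and 1.001 for CTCF and TET1 (5005 pairs).

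Among pairs with a recovered background of no more than 3 times the floor in both lists, those with the lowest sums of fold ranks had high values in both. Among 2 pairs tied for the lowest sum of ranks, one lay on chromosome 1 from 11134 to 11698 (hg19, as are all positions here, given for the CTCF region of a pair). Its CTCF fold was 19.4 and the MBD2 fold 15.0, with pileups of 129 and 91 fragments and summits 7 bp apart. At the other, on chromosome 17 from 43212638 to 43212959, the CTCF fold was 13.5 and the MBD2 fold 16.2, with pileups of 151 and 161 and summits 4 bp apart. Another pair on chromosome 17, from 39818906 to 39819245, had folds of 15.3 and 14.7 and summits 15 bp apart. Of the 6 pairs of this kind, 3 lay on chromosome 17, which held 681 of all 11747 shared CTCF regions. Nothing about that chromosome is read from so few pairs. All 6 were also DMSO regions of MBD3 and TET1, where 58.4% and 44.6% of all shared CTCF regions were. They were picked for high fold, and the part of fold in this difference was not tested.

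The remaining pairs of this kind showed the same order of values. On chromosome 17 from 18965078 to 18965796 the folds were 13.4 for CTCF and 15.6 for MBD2. This pair was still listed for CTCF under IAA. Under BPK25, it and the chromosome 7 pair below were listed for CTCF, MBD2, MBD3 and TET1. The chromosome X pair below was listed there for MBD2, MBD3 and TET1. All 6 pairs, picked for high fold, were TET1 regions under BPK25, where 5.33% of all shared CTCF regions were. On chromosome X from 10087482 to 10087922 the folds were 14.3 and 14.1, with summits 14 bp apart. A wide pair on chromosome 7, from 302891 to 304064, had folds of 13.4 and 15.1 and summits 364 bp apart, inside an overlap of 1147 bp. It is the exception to the close summits of this group. The pairs that led with no limit on background had CTCF pileups that were not recovered, because −log10 p was above 150, and MBD2 backgrounds of 4.75 and 4.32 fragments, near the floor. They were on chromosome 9 from 11221 to 11614, with folds of 24.3 and 21.2, and on chromosome 15 from 102519417 to 102520036, with folds of 24.96 and 16.7. The chromosome 9 pair, like the leading pair on chromosome 1, lay near the start of its chromosome. The chromosome 15 pair lay at the furthest region end of any list there, 102.52 Mb. Whether the sequence at these places is repeated elsewhere was not examined.

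Among the 8545 pairs that met the rule for named regions, those with the most unequal ranks still differed modestly in fold. That rule, with a −log10 q of 5 or more, leaves out pairs with a weak region, so more unequal pairs can exist outside it. On chromosome 14 from 94952651 to 94952922, the CTCF fold was 7.38 (pileup 54) and the MBD2 fold 3.93 (pileup 25). A pair on chromosome 17 from 7426475 to 7426762 had a CTCF fold of 6.30 (pileup 66) and an MBD2 fold of 3.10 (pileup 30). On chromosome X from 16789591 to 16789932 the folds were 6.30 and 3.38. The reverse order was found on chromosome 17 from 20025023 to 20025233, with a CTCF fold of 3.47 (pileup 45) and an MBD2 fold of 6.67 (pileup 74). On chromosome 12 from 98766795 to 98766998 the folds were 3.64 and 7.05, and on chromosome 15 from 82815024 to 82815424 they were 3.72 and 7.21. In 5 of these 6 pairs the summits were 22 bp or less apart, and on chromosome X they were 140 bp apart. Over all pairs the upper quartile of the distance was 21 bp, so nothing particular to these 6 is read from that count.

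Within the rule for named regions, the unshared regions of highest fold had folds far above the median of unshared regions. Their pileups, given below, stood against list medians of 38 fragments for CTCF and 36 for MBD2. In the order below, their local backgrounds were 4.35, 4.35, 6.11 and 4.35 fragments for CTCF and 4.50, 3.77, 4.22 and 4.57 for MBD2. The list medians of the background were 7.89 and 6.99 fragments. For CTCF they lay on chromosome 3 from 103991969 to 103992290 (fold 8.98, pileup 47), chromosome 12 from 68552213 to 68552557 (fold 8.60, pileup 45), chromosome 16 from 22012277 to 22012611 (fold 8.16, pileup 57) and chromosome X from 30731182 to 30731417 (fold 7.86, pileup 41). The nearest MBD2 region was 290705, 64443, 76476 and 22555 bp away. Of these 4, 3 were TET1 regions in DMSO, where 11.8% of all unshared CTCF regions were. The region on chromosome X was also an MBD3 region, where 21.7% of all unshared CTCF regions were. The MBD2 regions of this kind were on chromosome 2 from 242820268 to 242820491 (fold 8.73, pileup 47) and from 152458403 to 152458703 (fold 8.59, pileup 40), chromosome 13 from 25949956 to 25950212 (fold 8.43, pileup 43) and chromosome 21 from 21815887 to 21816192 (fold 8.26, pileup 45). The nearest CTCF region was 72558, 10329, 88141 and 555773 bp away. Of these 4, 3 were MBD3 regions in DMSO, where 19.1% of all unshared MBD2 regions were. The region on chromosome 13 and that from 152458403 on chromosome 2 were also TET1 regions, where 11.3% of all unshared MBD2 regions were. In all, 6 of these 8 regions were listed for MBD3 or TET1 in DMSO, where 28.3% of all unshared CTCF and 26.1% of all unshared MBD2 regions were. The 8 were picked for high fold, and all unshared regions had median folds of 3.74 for CTCF and 3.89 for MBD2. The part of fold in this difference was not tested.

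Densities by chromosome followed each other. On chromosomes 1 to 22 and X there were 17252 CTCF and 15877 MBD2 regions, or 5.68 and 5.23 per Mb, with the furthest region end of any list taken as the length of a chromosome. Chromosome 17 had the highest density, 11.5 CTCF and 10.4 MBD2 regions per Mb, followed by chromosome 19 with 10.7 and 9.95. Chromosome 21 had the lowest, 3.18 and 2.81, and chromosome 18 the next, 3.41 and 3.04. The densities of the 2 lists had a rho of 0.99 across the 23 chromosomes. Both densities count the shared regions, so they are not separate. The densities of unshared CTCF and unshared MBD2 regions had a rho of 0.81. The number of MBD2 regions per CTCF region was 0.920 over all of them and ranged from 0.827 on chromosome 16 to 0.971 on chromosome 12.

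Dense chromosomes also had the larger shares of overlap. Of MBD2 regions, 80.5% (77.7 to 83.0) overlapped a CTCF region on chromosome 17 and 79.3% (75.8 to 82.3) on chromosome 19, against 68.3% (65.0 to 71.4) on chromosome 3. Of CTCF regions, 73.6% (70.05 to 76.9) overlapped an MBD2 region on chromosome 19 and 60.3% (56.1 to 64.4) on chromosome 9. Chromosome 16 stood out in that 60.7% (56.4 to 64.8) of its CTCF regions but 73.8% (69.4 to 77.7) of its MBD2 regions were shared. Across chromosomes, the density of CTCF regions and the share of MBD2 regions with an overlap had a rho of 0.84. Shared regions count in both of these quantities, so they are not separate and the rho is a description only. Unshared regions varied less between chromosomes than shared ones. The highest density was 4.205 times the lowest for shared CTCF regions, 2.63 times for unshared CTCF and 2.55 times for unshared MBD2 regions.

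**Figure D5:**
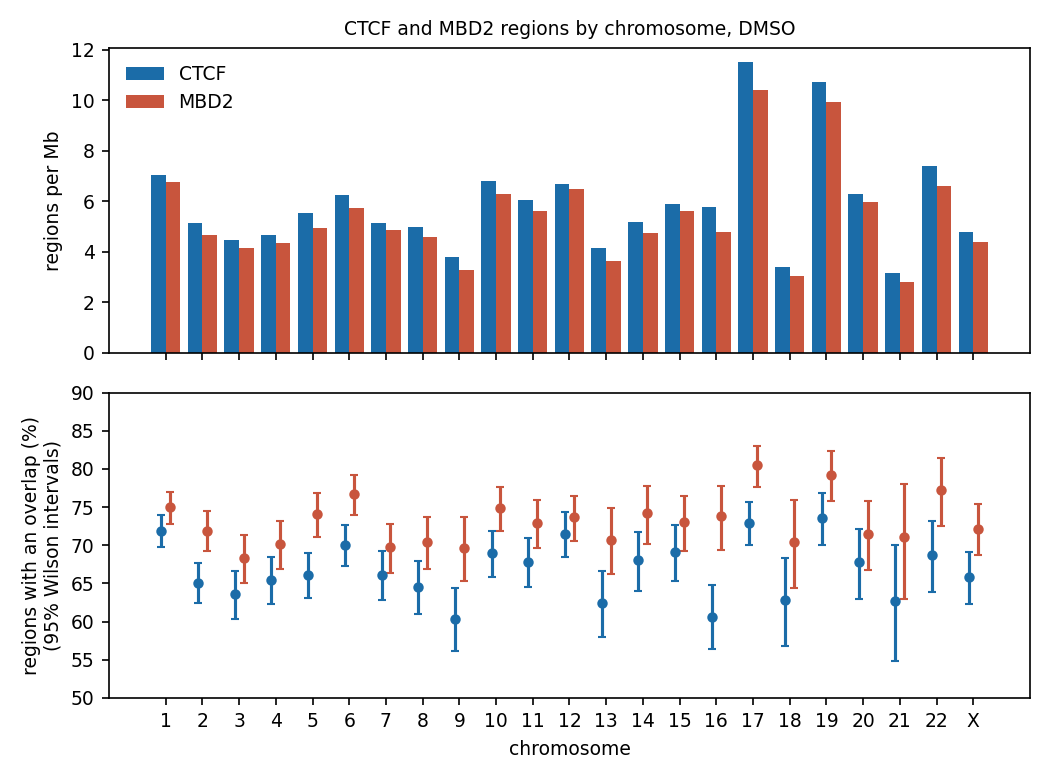
Upper panel, CTCF (blue) and MBD2 (red) regions per Mb on chromosomes 1 to 22 and X; lower panel, the share of each list's regions that overlap the other list, with 95% Wilson intervals over regions and an axis from 50% to 90%. Chromosomes 17 and 19 have the highest densities in both lists. The densities, which both count the shared regions, have a rho of 0.99.

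Shared regions were more often listed for MBD3 and TET1. Of all CTCF regions, 46.4% overlapped an MBD3 region and 33.9% a TET1 region. The shares were 58.4% (57.5 to 59.3) and 44.6% (43.7 to 45.5) for shared CTCF regions and 21.7% (20.7 to 22.8) and 11.8% (10.96 to 12.6) for unshared ones. Of all MBD2 regions, 48% overlapped an MBD3 and 35.8% a TET1 region, with 58.4% and 44.6% for shared and 19.1% (18.0 to 20.4) and 11.3% (10.4 to 12.3) for unshared regions. Neither MBD3 nor TET1 was listed at 71.7% of unshared CTCF and 73.9% of unshared MBD2 regions. Fold and detection limits differ between these classes, and their part in these shares was not tested.

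Few regions of either class were still listed for the same protein after treatment. Of all CTCF regions, 1.27% had a CTCF region under BPK25, with 1.56% (1.35 to 1.80) of shared and 0.685% (0.502 to 0.935) of unshared regions. Under IAA the share was 0.952%, with 1.25% (1.07 to 1.47) of shared and 0.334% (0.214 to 0.521) of unshared regions. Of all MBD2 regions, 1.45% had an MBD2 region under BPK25, with 1.84% (1.61 to 2.097) of shared and 0.377% (0.232 to 0.612) of unshared regions. Under IAA it was 0.613%, with 98 shared regions and 0 of 4241 unshared ones, which allows a share of up to 0.0707%. Where the background was no more than 3 times the floor, the shares above 0 were lower. CTCF under BPK25 was listed at 0.397% of shared and 0.133% of unshared CTCF regions, and CTCF under IAA at 0.349% and 0.095%. MBD2 under BPK25 was listed at 0.969% of shared and 0.298% of unshared MBD2 regions, and MBD2 under IAA at 0 of 10321 shared MBD2 regions, which allows up to 0.0291%. The treated lists were 375 and 595 regions long for CTCF and 510 and 138 for MBD2, and their length and depth limit these shares.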

How the data were processed

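The labels group 45 libraries into 15 groups of 3 by treatment and antibody. Per the submitters' processing notes the authors used Bowtie2 2.3.4, SAMtools 1.9 and MACS2 2.1.2 on hg19, and the sources used here do not give the caller's settings. The deposited lists, 1 per group over replicates 1 to 3 together, give per peak a fold (the linear ratio of pileup over background), the −log10 of p and q, and the summit offset. Sub-peaks with the same start and end were merged into 1 region with the values of the largest −log10 p. The fold was read as pileup plus 1 over background plus 1, and p as the Poisson tail above the pileup, and a whole pileup had to meet −log10 p within 0.02%. Shares have Wilson intervals, medians have binomial order-statistic intervals and rho has Fisher intervals, at 95%, and a count of 0 allows 3 counts of the total.

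Named regions, on chromosomes 1 to 7, 9 to 22 and X with a −log10 q of 5 or more, are the 6 pairs with the lowest sum of fold ranks, the 3 most unequal pairs each way, and the 4 unshared regions of highest fold per list, all with a background of at most 3 times the floor, and the 2 leading pairs without that limit. The question, the named-region rule and the alternatives were chosen with earlier results of these data known. The ratio of pileups was added after seeing the data. Planned values by gene and by sequence were not made, since no hg19 reference was used here. Scripts were tested on simulated data (Python 3.11.15, numpy 2.4.6, pandas 2.3.3, SciPy 1.17.1).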

Additional observations from a re-analysis of the deposited data

How the results depend on the processing

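No paired analysis was possible because each list was called on 3 replicates together, and for the same reason no replicate could be left out. Of 96 values under 11 alternatives, 52 stayed within the 95% interval of the reported value, 44 moved outside it and 0 changed sign. With a −log10 q of 5 or more, 69.5% of CTCF and 75.5% of MBD2 regions were shared, summits were a median of 10 bp apart with 97.4% within 50 bp, gaps had medians of 49687 bp from CTCF and 51872 bp from MBD2, and rho of the fold was 0.69. With a fold of 5 or more, the shares were 64.2% and 59.1%, the distance 8 bp with 99.2%, the gaps 121680 and 141678 bp, the width excess 22 bp for CTCF and 16 bp for MBD2, rho 0.48 and the share of the top CTCF quartile also in the top MBD2 quartile 56.2%. Fewer regions lengthen gaps by construction. Cuts on −log10 q, fold, list length, background or number of summits were applied to both lists at once. A region whose partner was cut thus counted as unshared, whereas the shares by decile of fold used the whole other list. With 10000 regions of highest −log10 q in each list, the shares were 70.3% and 70.3%, the distance 9 bp with 98.9%, the gaps 63928 and 71500 bp, the width excess 22 and 24 bp, rho 0.70 and that of the top quartile 61.1%. With summits within 150 bp as the rule, the shares were 66.1% and 72.1%, 95.9% lay within 50 bp, and the gaps were 41363 and 38076 bp. With the background no more than 3 times the floor, the shares were 65.5% and 71.1%, the gaps 50584 and 47488 bp, rho of the fold 0.68 and rho of the chromosome densities 0.98. With regions of 1 summit only, the shares were 66.2% and 72.1%, with 95.5% within 50 bp. Spearman's rank correlation was 0.69 for −log10 q and 0.82 for the pileup, an alternative chosen after seeing the data, which gave a top-quartile share of 73.4%. Apart from fewer regions, the cause of these shifts was not tested. Weak regions rest on few fragments, which limits the precision of their summits and folds.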

Other observations

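On contigs outside chromosomes 1 to 22, X and Y, the CTCF list held 174 regions and the MBD2 list 109. Of these, 95 CTCF regions (54.6%, 47.2 to 61.8) and 95 MBD2 regions (87.2%, 79.6 to 92.2) were shared. Their median folds were 2.32 for CTCF and 2.07 for MBD2. The local background was over 3 times the floor in 105 of the CTCF and 67 of the MBD2 regions.

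Raised background was also more common at shared regions of the whole lists. It was over 3 times the floor in 11.9% (11.3 to 12.47) of shared and 7.47% (6.81 to 8.18) of unshared CTCF regions, and in 12.0% (11.4 to 12.6) of shared and 5.14% (4.52 to 5.85) of unshared MBD2 regions. Over the 1511 pairs with a raised background in either list and both pileups solved, rho of the fold was 0.83, against 0.68 over the other pairs with both solved.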
